A study of Mus musculus with 8 samples.

Results

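The genes described here encode 10 cortical neuropeptides: Sst, Vip, Npy, Cck, Penk, Pdyn, Tac1, Tac2, Crh and Cort. They were chosen by name with earlier results of these data known, and all 10 were found among the 26711 features counted. Their unique molecular identifiers (UMIs, 1 for each captured RNA molecule) were summed for each library and each deposited cell type and scaled to the library total of that type (CPM, UMIs of the gene per 1000000 UMIs). Single-nucleus RNA sequencing was carried out on primary visual cortex of mice at postnatal day 21, and 102330 nuclei in 8 libraries carried 1 of 20 cell type labels. All animals carried floxed alleles of Nr3c1, which encodes the glucocorticoid receptor (GR), and received at birth an AAV2/5 virus driven by the astrocyte promoter GfaABC1D together with EGFP. The virus carried Cre in GR-KO animals and inactive ΔCre in GR-Con animals, and animals of each kind were either normally reared (NR) or dark-reared (DR). Each of the 4 combinations of rearing and genotype had 2 libraries, 1 from a male and 1 from a female. By the study's methods the EGFP was targeted to the cell membrane and the nuclei were collected in a GFP-negative gate. The paper reports virus-derived eGFP RNA in astrocytes of this dataset. It also reports that many GR-dependent genes of its bulk astrocyte RNA sequencing were recovered in these astrocytes. How many of the sorted astrocytes carried a recombined Nr3c1 was not measured here.

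Neuropeptides are cut from larger precursor proteins, stored in dense-core vesicles and released onto receptors that are almost all coupled to G proteins. In the cortex most of them are made by GABAergic interneurons together with GABA, and Sst and Vip give their names to classes of such cells. Several of these genes respond to neuronal activity, and Sst is the textbook gene in which the cAMP response element, bound by the transcription factor CREB, was described.

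The 8 libraries held 9517 to 15161 nuclei, 168632129 to 288774016 UMIs, and a median of 14861 to 29223 UMIs per nucleus. Of 101098 barcode sequences, 1220 occurred in more than 1 library. There were 8 excitatory types with 69372 nuclei, 5 inhibitory types with 10403 and 7 non-neuronal types with 22555, and 15 types had at least 10 nuclei in every library. Of 55 marker genes, 47 were highest in the type or class they mark, and this held for all 3 markers of each of the Pvalb, Sst, Vip, Lamp5 and chandelier types. It held for 0 of 2 markers of each of the L4, L5PT and L6IT types and 1 of 2 of each of the L5IT and L5NP types, so the L6IT label rests on the deposited annotation and not on these markers. In 3 libraries (the NR GR-Con male, the NR GR-KO male and the DR GR-Con female) only 2 to 4 nuclei were microglia, against 573 to 948 in the other 5, and values within these sets are given below for the called pairs above background and for Vip. Nr3c1 was counted in astrocytes at 207 to 263 CPM in GR-Con and at 268 to 284 CPM in GR-KO libraries, and so was not lower in GR-KO. Whether UMIs, which come from the 3′ end, read the part removed by Cre was not tested, and this level does not check the labels. Groups of 2 libraries leave little room to measure the spread, so p-values rest on models fitted across all features.

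The promoters are shown because a shared regulatory motif is the feature of these genes that sequence alone can give. RefSeq windows of 300 bases on GRCm38.p6, with 250 bases before the start site, were found for 8 of the 10 genes (not Penk or Crh). The 8-letter cAMP response element TGACGTCA was found in 1 of the 8, Sst, where it begins 48 bases before the start site, and in 1.79% of 32851 promoters of the same length. Its core TGACG, which also occurs inside TGACGTCA, was found in 5 of the 8 (Sst, Vip, Cck, Tac1 and Cort), against 20.8% of all promoters. The AP-1 motif TGACTCA was found in 0 of the 8 and in 5.2% of all promoters. Both strands were searched. Below are Sst (chr16:23890795-23891094, minus strand), Vip (chr10:5638968-5639267, plus strand) and Cort (chr4:149126714-149127013, minus strand), which carry a match, and Npy (chr6:49822460-49822759, plus strand), which carries none. They are written 5′ to 3′ on the strand of the gene. Capitals mark the matched letters, which read CGTCA where the match is on the other strand.
Sst: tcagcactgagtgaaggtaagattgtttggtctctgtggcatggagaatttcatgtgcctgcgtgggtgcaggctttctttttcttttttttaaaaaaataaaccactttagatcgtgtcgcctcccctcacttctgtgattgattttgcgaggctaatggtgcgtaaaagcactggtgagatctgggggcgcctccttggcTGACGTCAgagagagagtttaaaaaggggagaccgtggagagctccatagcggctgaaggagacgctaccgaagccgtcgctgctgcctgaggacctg
Vip: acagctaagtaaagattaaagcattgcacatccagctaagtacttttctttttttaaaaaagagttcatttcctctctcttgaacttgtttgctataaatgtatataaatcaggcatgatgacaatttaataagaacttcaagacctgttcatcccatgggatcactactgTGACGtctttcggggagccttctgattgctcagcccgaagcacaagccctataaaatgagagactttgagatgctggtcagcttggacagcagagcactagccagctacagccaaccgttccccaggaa
Npy: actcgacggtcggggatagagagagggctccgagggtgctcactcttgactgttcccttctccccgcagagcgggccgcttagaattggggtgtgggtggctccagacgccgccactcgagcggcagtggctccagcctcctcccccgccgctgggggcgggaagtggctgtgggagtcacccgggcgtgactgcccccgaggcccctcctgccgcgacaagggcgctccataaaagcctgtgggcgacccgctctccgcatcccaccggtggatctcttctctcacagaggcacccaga
Cort: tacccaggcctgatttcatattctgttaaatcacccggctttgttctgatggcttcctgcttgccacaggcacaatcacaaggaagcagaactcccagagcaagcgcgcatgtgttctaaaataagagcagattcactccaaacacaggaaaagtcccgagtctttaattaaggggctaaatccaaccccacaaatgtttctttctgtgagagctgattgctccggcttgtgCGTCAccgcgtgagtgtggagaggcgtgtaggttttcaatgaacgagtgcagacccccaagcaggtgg
A match is a run of letters and no evidence of binding. Of the genes called lower in DR in any cell type below, Sst, Vip, Cck, Tac1 and Cort carry the core and Npy does not. Penk and Crh, also called, have no window. Most of these calls lay at the background level described below, and a relation of motif to rearing was not tested.

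Levels were ranked among the 15 types with at least 10 nuclei in every library, and each next type and fold below is taken among these. The deposited types were defined by clustering on the same counts, these genes included, so levels across types are a description and no test. In this ranking 7 of the 10 genes had a single cell type that stood above all others. The level of Vip (chromosome 10, 5639218 to 5647617), which encodes vasoactive intestinal peptide, was the highest of any member. It was 413, 376, 388 and 377 CPM in Vip interneurons of the 4 NR libraries (GR-Con male and female, then GR-KO male and female, the order kept throughout) and 268, 359, 281 and 291 CPM in the 4 DR libraries. Its mean was 344 ± 55.4 CPM (SD, n = 8), 56.1-fold over the next type, and no library overlapped with that type. In endothelial nuclei, outside the 15 types, Vip ranged from 0 to 49.1 CPM on at most 15 UMIs a library, also below every Vip library. Tac2 (chromosome 10, 127724478 to 127731768), the neurokinin B precursor, was also highest in Vip interneurons, at 25.1, 20.5, 27.5 and 32.1 CPM in NR and 30.6, 34.4, 24.7 and 24.0 CPM in DR libraries. This was 62.6-fold over the next type, with no separation of NR from DR.

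Crh (chromosome 3, 19693401 to 19695396), which encodes corticotropin-releasing hormone, was the third gene of Vip interneurons. It was counted there at 17.4, 8.14, 27.2 and 18.8 CPM in NR and 10.9, 9.27, 14.4 and 13.2 CPM in DR libraries, so that the NR values spanned the DR values. Its second type was Sst interneurons at 2.91 CPM, a level that did not overlap with Vip interneurons. Penk (chromosome 4, 4133531 to 4138819), the proenkephalin gene, had a mean of 12.9 ± 3.78 CPM (SD, n = 8) in Vip interneurons. It was at 19.2, 13.5, 14.6 and 14.3 CPM in NR and 12.2, 13.8, 8.24 and 7.28 CPM in DR libraries. The second type for Penk was not inhibitory but L6IT, the intratelencephalic neurons of layer 6.

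In Sst interneurons, Sst itself (chromosome 16, 23889573 to 23890958), the somatostatin gene, was at 33.9, 39.3, 62.5 and 30.7 CPM in NR and 24.6, 39.5, 33.0 and 33.8 CPM in DR libraries. The mean of 37.1 ± 11.3 CPM (SD, n = 8) was 7.44-fold over the next type, and 1 library, the NR GR-KO male, stood above the other 7. Pdyn (chromosome 2, 129686565 to 129699844), the prodynorphin gene, was at 42.3, 32.1, 19.3 and 42.1 CPM in NR and 21.3, 29.6, 28.0 and 31.2 CPM in DR libraries. It was 49.0-fold over its next type, and the NR libraries held both its highest and its lowest value. Tac1 (chromosome 6, 7554879 to 7565834), which encodes substance P and neurokinin A, was highest in Pvalb interneurons at 16.3 ± 3.38 CPM (SD, n = 8). It was at 17.0, 17.8, 21.4 and 15.7 CPM in NR and 15.2, 16.7, 17.6 and 9.36 CPM in DR libraries, and all 8 were above the next of the 15 types. Chandelier nuclei, which are outside the 15, held single UMIs of Tac1 in 5 libraries and reached 9.61 CPM, above the lowest Pvalb library.

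The other 3 genes were shared between types whose libraries overlapped. Npy (chromosome 6, 49822710 to 49829507), which encodes neuropeptide Y, was at 60.4 ± 20.3 CPM in Lamp5 interneurons and 30.9 ± 7.43 CPM in Sst interneurons (SD, n = 8). Cort (chromosome 4, 149125034 to 149126763), the cortistatin gene, a close relative of Sst, was at 9.82 ± 2.74 CPM in Pvalb, 4.86 ± 3.34 in Sst and 3.97 ± 2.92 in Lamp5 interneurons (SD, n = 8). Cck (chromosome 9, 121489824 to 121495694), the cholecystokinin gene, was the one member highest in excitatory neurons. Its level was 32.3 ± 7.31 CPM in L6IT, 19.2 ± 3.63 in L5IT and 17.6 ± 4.6 in L2/3 neurons (SD, n = 8), and neighbours in that order overlapped. In L6IT neurons Cck was at 31.6, 29.1, 46.6 and 23.9 CPM in NR and 24.8, 37.2, 30.9 and 34.5 CPM in DR libraries, with both rearings spread over the same range.

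All 10 genes were also counted at low level in cell types that are not known to make them. In droplet libraries RNA released from broken cells is captured with every nucleus, so UMIs per nucleus were set beside those in oligodendrocytes, which should lack these peptides. Sst was counted at 70.4 UMIs per 100 nuclei in Sst interneurons (median depth 17297 UMIs), at 3.49 in oligodendrocytes (8864) and at 3.51 in astrocytes (6107). Over the 14 types other than Sst interneurons it kept to a narrow range of 3.02 to 5.53. Vip was at 543 UMIs per 100 nuclei in Vip interneurons (median depth 13869 UMIs) and at 3.62 to 7.82 in the 14 other types. A level of at least 3 times that of oligodendrocytes, a limit set after seeing the data, was called above background, and 20 of 150 pairs of a gene and a type passed it.

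These 20 pairs included every leading type named above. The ratio to oligodendrocytes was 118 for Vip, 119 for Tac2, 47.9 for Crh and 19.0 for Penk in Vip interneurons. It was 104 for Pdyn and 20.2 for Sst in Sst interneurons, and 29.0 for Npy in Lamp5 interneurons. Tac1 in Sst interneurons, at 3.08, and Cck in L2/3 neurons, at 3.48, lay just inside the limit. Npy in Vip and Pvalb interneurons, at 2.81 and 2.67, lay just outside it. Below the limit a count is read here as background and not as expression.

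**Figure D1:**
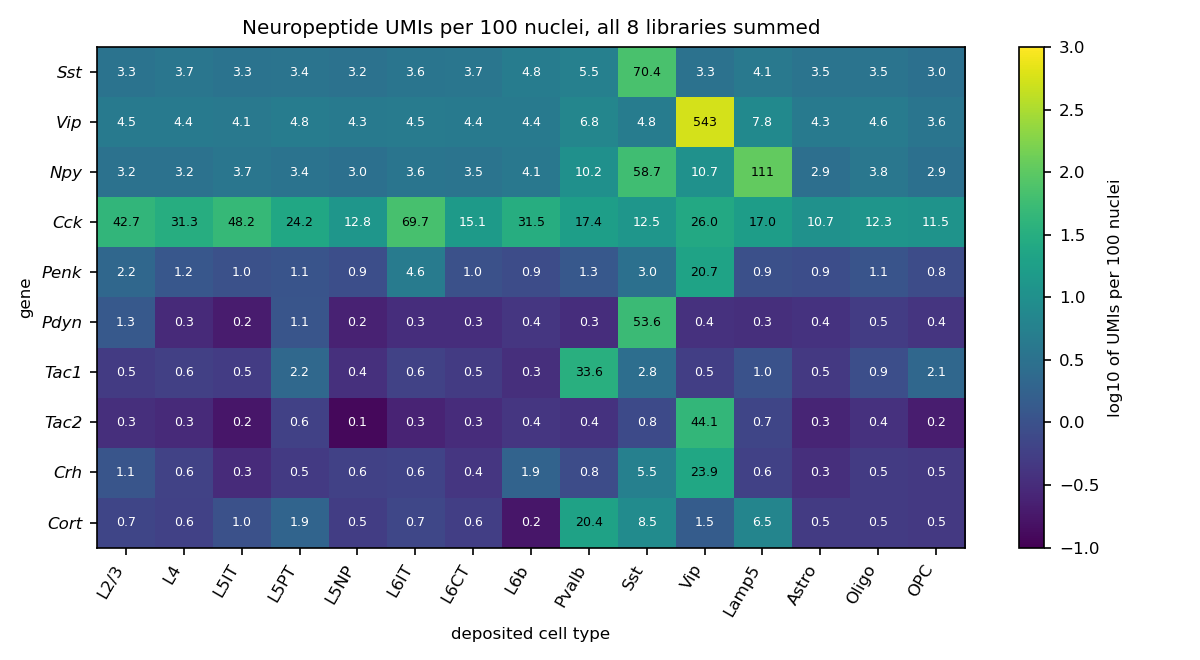
UMIs per 100 nuclei of each of the 10 neuropeptide genes (rows) in each of the 15 cell types with enough nuclei (columns), 8 libraries summed, with colour on a log10 scale. Vip in Vip interneurons, at 543, is the highest cell, Sst holds 3.02 to 5.53 in every column but its own, and Cck spreads over the excitatory columns.

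The share of a gene's UMIs that lay outside its types above background differed between genes. It was 63.8% for Sst, 61.4% for Penk, 55.3% for Npy and 46.3% for Cck, against 23.9% for Tac2, 25.9% for Vip and 27.2% for Pdyn. Of all Npy UMIs 19.4% lay in Lamp5 interneurons, which were 1163 of the 102330 nuclei. Excitatory neurons, which were 69372 of these nuclei, held 84.9% of Cck UMIs, and 53.7% lay in the 3 types above background.

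The background level itself differed between groups. Over the types below the limit for each gene, Sst was at 3.30, 2.56, 9.13 and 8.25 UMIs per 100 nuclei in the NR libraries and at 1.33, 2.82, 1.63 and 1.52 in the DR libraries. Both NR GR-KO libraries were the highest for Sst, and the NR GR-Con female was within the DR range. The NR mean was 3.18-fold the DR mean for Sst, 2.47-fold for Vip, 3.22-fold for Npy, 1.67-fold for Cck and 4.22-fold for Penk. The median depth per nucleus was 22828 and 29223 UMIs in the NR GR-KO libraries against 14861 to 20161 in the other 6. Scaled to the UMIs of the same types (CPM), the NR mean was 2.48-fold the DR mean for Sst, 1.98-fold for Vip, 2.54-fold for Npy, 1.31-fold for Cck and 3.42-fold for Penk. What set this level was not tested. The counts of called member pairs below are therefore split by this limit.

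**Figure D2:**
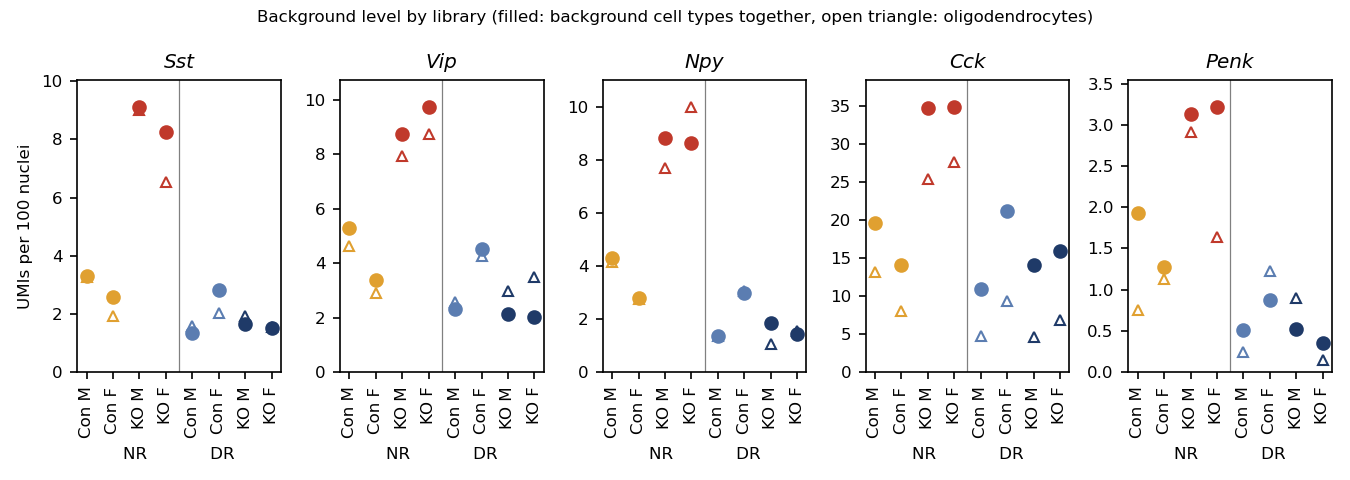
UMIs per 100 nuclei of Sst, Vip, Npy, Cck and Penk in each of the 8 libraries (M, male; F, female), over the cell types at background for that gene together (filled circles) and in oligodendrocytes alone (open triangles). The filled circles of both NR GR-KO libraries lie highest for every gene shown, at 9.13 and 8.25 for Sst.

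The share of nuclei with at least 1 UMI was compared after thinning every nucleus to 5000 UMIs, which left out 7688 shallower nuclei. Vip was found in 64.1% ± 5.61 of Vip interneurons (SD, n = 8; 73.3% without thinning), against 2.17% of oligodendrocytes. The corresponding shares were 16.7% ± 3.83 (42.5%) for Sst in Sst interneurons, against 1.68%, and 23.6% ± 6.72 (49.9%) for Npy in Lamp5 interneurons, against 1.82%. For Cck in L6IT neurons the share was 15.3% ± 3.38 (46.3%), with 5.62% in oligodendrocytes. The remaining 6 genes were found in 4.83% to 11.7% of the nuclei of their leading type after thinning, and in 0.16% to 0.63% of oligodendrocytes. A single Vip interneuron held up to 51 UMIs of Vip, and a single Sst interneuron up to 17 UMIs of Pdyn.

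Within a type the genes were not found together at equal rates, which is given as a description with no test. In Vip interneurons thinned to 5000 UMIs, 78.5% of the Tac2-positive nuclei also held Vip (201 of 256), against 62.0% of the rest. The same held in smaller measure for Penk-positive nuclei, of which 75.3% held Vip (113 of 150) against 63.0%. Tac2 and Penk themselves were found together in 7 of 150 Penk-positive nuclei, or 4.67%, against 11.2% of the rest. In Sst interneurons, Npy was found in 30.3% of Cort-positive nuclei (20 of 66) and in 11.2% of the rest, while it was in 7.38% of Pdyn-positive nuclei (24 of 325) and in 12.2% of the rest. In Pvalb interneurons Tac1 was found in 17.2% of Cort-positive nuclei (32 of 186) against 7.87%. These shares pool nuclei of 8 libraries, and values of single libraries spread widely. They lay above the pooled value of the rest throughout for Vip given Tac2 (69.0% to 96.9%), Npy given Cort in the 6 libraries that had enough nuclei (16.7% to 45.5%) and Tac1 given Cort (10.5% to 26.1%). They lay on both sides of it for Vip given Penk (60.9% to 84.6%), Tac2 given Penk (0% to 15.0%) and Npy given Pdyn (0% to 14.3%). The rest was not split by library, so these are not comparisons within a library.

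**Figure D3:**
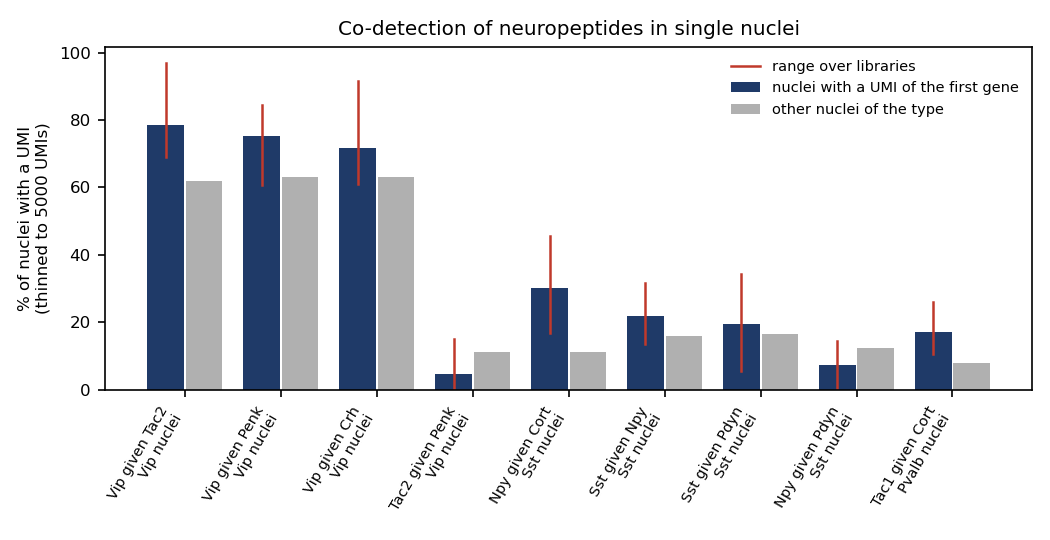
Percent of nuclei with a UMI of a neuropeptide gene after thinning to 5000 UMIs, in nuclei with a UMI of a first gene (dark bars, with the range over libraries as a line) and in the other nuclei of the type (grey bars). In Vip interneurons Vip was in 78.5% of Tac2-positive nuclei against 62.0% of the rest, and in Sst interneurons Npy was in 30.3% of Cort-positive nuclei against 11.2%.

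How visual experience bears on these genes was examined by comparing DR with NR over both genotypes. Each pair of a gene and a cell type was tested with the edgeR likelihood ratio test, with Benjamini-Hochberg adjustment over all features of that type. The limit rests on oligodendrocytes, whose level of these genes differed with rearing, so it was also applied to NR and DR libraries separately, an alternative chosen after seeing the data. Of the 150 pairs 16 passed it in both rearings, 16 in 1 rearing and 118 in neither. Npy in Lamp5 interneurons and Cort in Pvalb interneurons fell in DR, and these were the 2 pairs called among the 14 that passed in both rearings and also passed the filter on low counts. Of the 10 tested pairs that passed in 1 rearing, Penk in L6IT neurons, which passed through NR, and Npy in Pvalb interneurons, which passed through DR, were called lower. Over all pairs, 36 of 78 were called at an adjusted p under 0.05, all lower in DR, while 5.4% of all feature and type pairs were called and 2.7% were called lower. Since the members were chosen with earlier results of these data known, nothing is read from a share above that of all features. The quasi-likelihood test called fewer member pairs. DESeq2 did too, but it also gave an adjusted p to fewer pairs. Leaving out 1 library moved the count both ways, as given in the section on processing. With the limit taken over all 8 libraries, 3 of the calls, Penk in L6IT among them, lay among 17 pairs above background and 33 among 61 at background. The median log2 fold change was -0.29 over the 17 and -1.03 over the 61. Sorting by that limit is not independent of rearing: besides Penk in L6IT, which reached it through NR, Cck in L2/3 neurons, Tac1 in Sst interneurons and Cort in L5PT neurons reached it in DR libraries but not in NR libraries. Without the pairs that passed in 1 rearing, the median was -0.29 over the 14 pairs over the limit in both and -1.06 over the 54 under it in both. By comparison, the medians over all features lay within 0.04 of 0 in each type. Of the 150 pairs of the 15 types, 72 were removed by the filter.

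**Figure D4:**
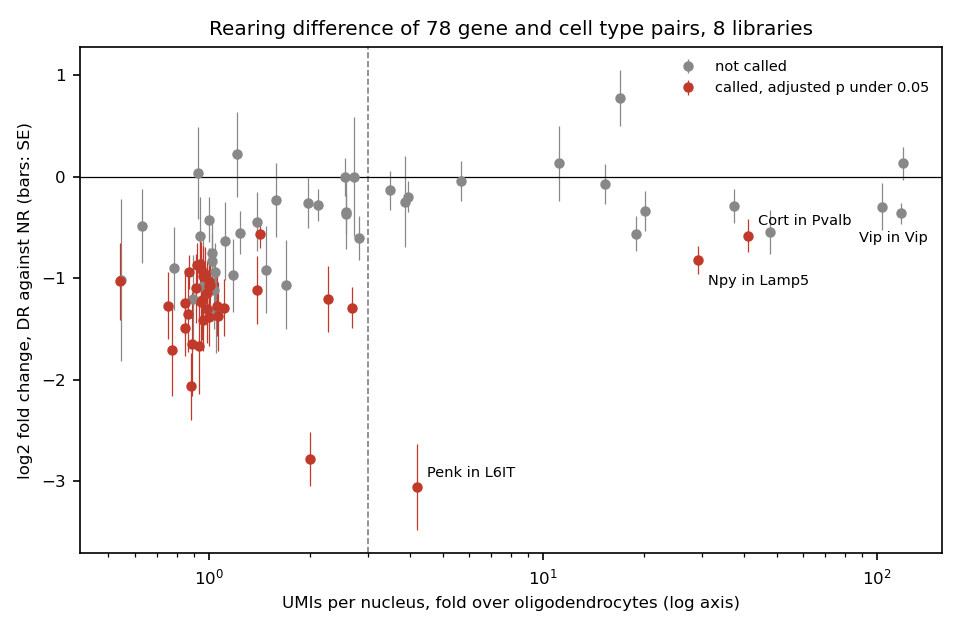
log2 fold change of DR against NR over both genotypes, with its SE, for 78 pairs of a neuropeptide gene and a cell type, against the ratio of UMIs per nucleus to that in oligodendrocytes (log axis). Called pairs are red, and 33 of the 36 lie left of the dashed limit of 3, where the median is -1.03 against -0.29 to its right.

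Npy in Lamp5 interneurons was counted at 76.0, 71.7, 82.9 and 81.5 CPM in NR and at 51.5, 51.6, 35.0 and 32.8 CPM in DR libraries. The groups did not overlap, with means of 78.0 ± 5.18 CPM (NR) and 42.7 ± 10.2 CPM in DR (SD, n = 4 each). The log2 fold change was -0.82 (SE 0.14, adjusted p = 1.1e-05), where 1.1% of features in Lamp5 interneurons were called lower, and it was -0.85 with the oligodendrocyte level of each library subtracted, an alternative chosen after seeing the data. Npy was found in 28.8% ± 5.06 of thinned Lamp5 nuclei in NR and 18.4% ± 2.73 in DR (SD, n = 4 each). Before thinning, positive nuclei held 2.49 UMIs of Npy in NR and 1.72 in DR, and depth was not matched in these values. In Sst interneurons, the second type that expresses it, Npy was at 38.1, 27.5, 41.5 and 19.3 CPM in NR and 25.3, 37.0, 28.2 and 30.3 CPM in DR libraries. Those values overlapped fully, and the fitted difference was -0.07 on the log2 scale (adjusted p = 0.95). Whether the change of Npy differs between the Lamp5 and Sst types was not tested.

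Cort in Pvalb interneurons was counted at 12.7, 9.28, 14.9 and 10.2 CPM in NR and at 7.04, 8.55, 7.32 and 8.48 CPM in DR libraries. The lowest NR library was above the highest DR library. The log2 fold change was -0.58 (SE 0.17, adjusted p = 0.021), with 1.58% of features called lower in that type, but the call was lost with the quasi-likelihood test (adjusted p = 0.0757), with DESeq2 (adjusted p = 0.0785) and without any 1 of 5 libraries. Its share of thinned Pvalb nuclei was 5.81% ± 0.902 in NR and 3.86% ± 0.53 in DR (SD, n = 4 each). The log2 fold change of Cort in Sst interneurons was 0.77 (adjusted p = 0.17), the opposite sign.

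Penk in L6IT neurons passed the limit only through the NR libraries, with a ratio to oligodendrocytes of 5.21 in NR (273 UMIs) and 1.83 in DR (36 UMIs), so that it was chosen in part by the group in which it is high. It was counted at 3.73, 3.81, 2.32 and 4.80 CPM in NR and at 0.821, 0.679, 0.154 and 0.154 CPM in DR libraries, from 59, 66, 51 and 97 UMIs in NR and 16, 16, 2 and 2 UMIs in DR. Every NR library was above every DR library. The log2 fold change was -3.06 (SE 0.43, adjusted p = 6.5e-10), where 3.41% of features in L6IT neurons were called lower. With the oligodendrocyte level subtracted, its level was 1.13 to 4.34 CPM in NR libraries and 0.705, 0.113, 0 and 0.0726 CPM in DR libraries, and no difference is given on that scale since 1 DR library sets the DR mean. After thinning, 1.64% ± 0.616 of L6IT nuclei in NR and 0.194% ± 0.093 in DR held a UMI of Penk (SD, n = 4 each). These shares come from the same UMIs as the test above and are given as a description.

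In L2/3 neurons Penk was 2.01 times the oligodendrocyte level and thus under the limit. It was counted at 1.84, 1.30, 1.58 and 1.50 CPM in NR and at 0.226, 0.344, 0.152 and 0.171 CPM in DR libraries, again without overlap. The log2 fold change was -2.78 (SE 0.26, adjusted p = 1.8e-22), against 8.43% of features called lower in that type. Subtracting the oligodendrocyte level left 2 of the 4 DR libraries at 0 CPM, and no difference is given on that scale. Penk in Vip interneurons was not called (-0.56 on the log2 scale, SE 0.17, adjusted p = 0.075), but it was called without the NR GR-Con female.

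**Figure D5:**
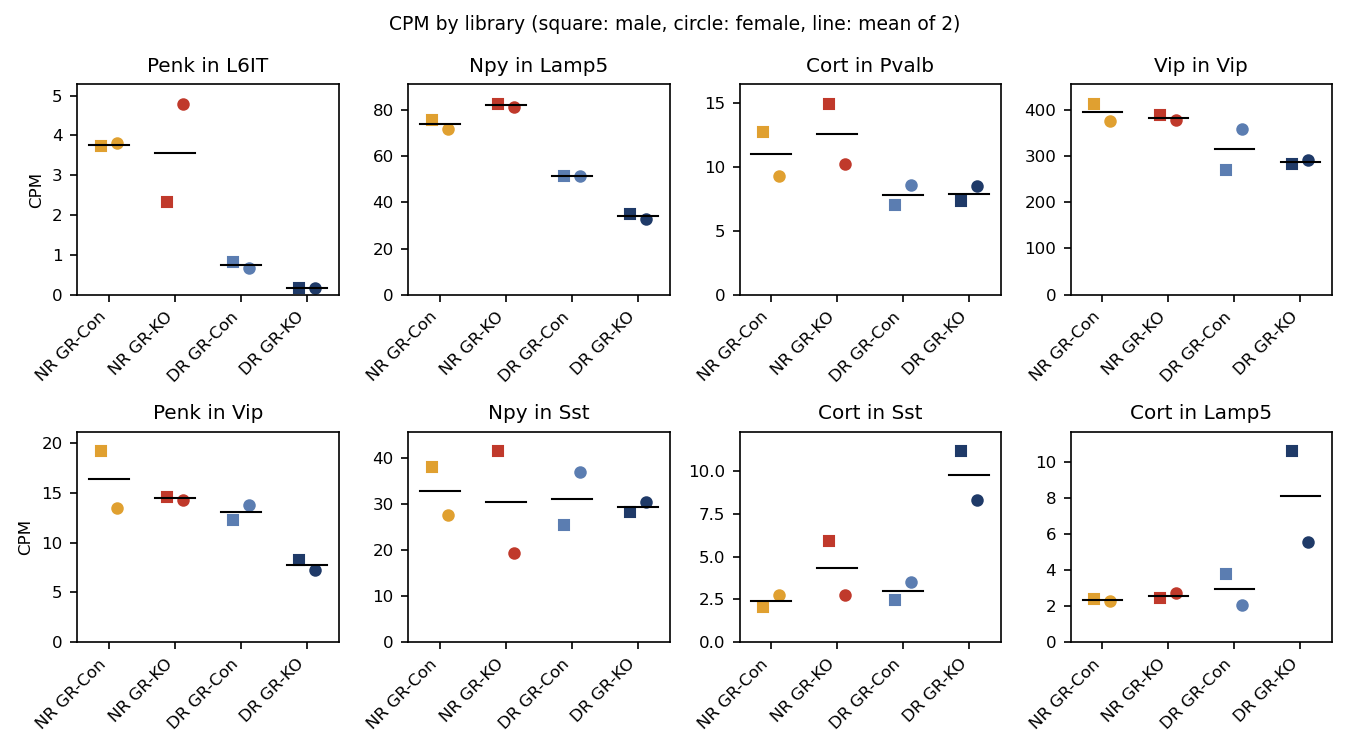
Level in CPM of 8 pairs of a neuropeptide gene and a cell type in each library, by group (squares, male; circles, female; lines, mean of the 2). NR libraries lie above DR libraries for Penk in L6IT neurons (2.32 to 4.80 against 0.154 to 0.821 CPM) and for Npy in Lamp5 interneurons (71.7 to 82.9 against 32.8 to 51.6 CPM).

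The remaining members were not called with rearing in their leading types with all 8 libraries. Vip in Vip interneurons had means of 388 ± 17.2 CPM in NR and 299.9 ± 40.5 CPM in DR (SD, n = 4 each), and every NR library was above every DR library. Its log2 fold change of -0.36 (SE 0.11) had an adjusted p of 0.053. It passed with DESeq2 (adjusted p = 0.0315), with sex as a term (adjusted p = 0.0115) and without the DR GR-Con female. Before thinning, positive Vip nuclei held 8.84 UMIs in NR and 6.13 UMIs in DR, and depth was not matched in these values. The log2 fold change was -0.34 (SE 0.20, adjusted p = 0.54) for Sst in Sst interneurons and -0.29 (adjusted p = 0.39) for Tac1 in Pvalb interneurons. It was 0.13 (adjusted p = 0.83) for Tac2 in Vip interneurons and -0.04 (adjusted p = 0.94) for Cck in L6IT neurons. Crh in Vip interneurons had a log2 fold change of -0.54 (SE 0.21, adjusted p = 0.22), which was called without the NR GR-Con female (-0.74, adjusted p = 0.0129). Pdyn in Sst interneurons, at -0.30 (SE 0.23, adjusted p = 0.71), was called without the NR GR-KO male (-0.55, adjusted p = 0.0139). A p that misses the threshold does not show that the levels were equal.

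At background, the calls in DR were spread over types that included glia. Of all features 2.7% were called lower over all types, and 8.43% in L2/3 neurons. The share of all features without overlap is not given, so nothing is read from the overlaps below about the members. Sst was called lower in 9 types (astrocytes, oligodendrocytes, their precursors, Vip interneurons and the L2/3, L4, L5IT, L5PT and L6CT neurons), with log2 fold changes of -1.67 to -1.03. Its NR and DR libraries did not overlap in 7 of these, and its ratio to oligodendrocytes lay between 0.866 and 1.06. Npy was called in 9 types, with log2 fold changes of -2.07 to -1.10 and no overlap in 5, and Vip in 5 types, with -1.15 to -0.87 and no overlap in 2. Cck was called in 4 types (-1.08 to -0.57) and Penk in 3 (-2.78 to -1.29), without overlap in any of them. Tac1, Crh and Cort were called in L2/3 neurons alone, at -1.03, -1.20 and -1.12.

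Of these calls Npy in Pvalb interneurons was the closest to the limit, which it passed in DR alone. It was at 7.94, 5.30, 8.06 and 6.58 CPM in NR and 2.51, 3.02, 2.80 and 3.04 CPM in DR libraries, which did not overlap (log2 fold change -1.29, adjusted p = 2.3e-07). Crh in L2/3 neurons, at 2.27 times the oligodendrocyte level, was at 0.469 to 1.06 CPM in NR and 0.256 to 0.291 CPM in DR libraries. The background level itself was higher in NR by the folds given above, and its part in these results was not tested.

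For Penk in L6IT, Npy in Lamp5, Cort in Pvalb and Vip in Vip interneurons every NR library lay above every DR library. Any set that holds both rearings must then give a fall in DR. The direction within the sets of libraries with few and many microglia is therefore no check on these pairs, and only sizes are given. In the 5 libraries with many microglia (2 NR and 3 DR) the log2 difference of DR from NR was -3.51 for Penk in L6IT, -0.95 for Npy in Lamp5 and -0.36 for Cort in Pvalb. In the 3 with few (2 NR and 1 DR) it was -2.16, -0.62 and -0.69, where the 1 DR library is GR-Con. For Vip in Vip interneurons the difference was -0.43 with many and -0.16 with few. Cort in Lamp5 and in Sst interneurons turned in sign, at 1.43 and 1.42 with many and -0.23 and -0.18 with few.

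Within each genotype the same comparison has 2 libraries a group and shares no library between genotypes. In GR-Con animals 6 of 73 pairs were called, all lower in DR, against 2.25% of all features, and 0 of these were among the 14 tested pairs over the limit in both rearings. Penk in L6IT neurons, over the limit through NR alone, was called at -2.35 on the log2 scale (adjusted p = 3.7e-09). Npy in Pvalb interneurons, over it through DR alone, was also called lower. In GR-KO animals 36 of 78 pairs were called, 35 lower and 1 higher, against 3.66% of all features, and 2 of these were among the 15 tested pairs over the limit in both rearings. They were Npy in Lamp5 interneurons at -1.22 (adjusted p = 8.7e-09) and Cort in Lamp5 interneurons at 1.73 (adjusted p = 0.021). Penk in L6IT neurons, again over the limit through NR alone, was called at -4.45 (adjusted p = 2.5e-08). Npy in Pvalb interneurons was called lower in GR-KO too. Under the quasi-likelihood test Penk in L6IT neurons was called in neither genotype, with an adjusted p of 0.153 in GR-Con and 0.0599 in GR-KO.

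Cort in Lamp5 interneurons rose in DR GR-KO, from 2.42 and 2.71 CPM in NR GR-KO to 10.6 and 5.56 CPM, in a type where 1.2% of features were called higher. These levels rest on 9, 8, 23 and 10 UMIs, and the call was lost with the quasi-likelihood test (adjusted p = 0.134), with no filter on low counts (adjusted p = 0.0513) and without either NR GR-KO library or the DR GR-KO male, and DESeq2 gave no adjusted p. Among the 3 GR-KO libraries with many microglia the log2 fold change was 1.63 (adjusted p = 0.117). The change of Npy in Lamp5 interneurons was not called in GR-Con (-0.48 on the log2 scale, adjusted p = 0.24).

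Whether astrocyte GR changes the response to vision was asked by the interaction term, positive where GR-KO minus GR-Con was larger in NR than in DR. In all, 0 of 85 pairs were called by the likelihood ratio test, where 0.181% of all features were, with 14 pairs under 0.05 before adjustment. The quasi-likelihood test also called 0 (12 before adjustment), as did DESeq2 (7 before adjustment). The share of all features under 0.05 before adjustment is not given, so nothing is read from the counts before adjustment. Other alternatives called up to 3 pairs, again without the share of all features. Vip in Pvalb interneurons, at background, was called with sex as a term (2.08, adjusted p = 0.0277) and without the NR GR-KO female (2.51, adjusted p = 0.00865). Without that library Sst in L2/3 neurons, also at background (1.50, adjusted p = 0.0492), and Pdyn in Sst interneurons (-1.23, adjusted p = 0.0258) were called too. Without the DR GR-Con male, Tac1 in L6CT neurons, at background, was called (4.65, adjusted p = 0.00387). With all 8 libraries none of the 19 pairs above background was called, with a median of 0.09 on the log2 scale, nor of the 66 at background, with a median of 0.70. For Npy in Lamp5 interneurons the interaction was 0.73 on the log2 scale (unadjusted p = 0.0016, adjusted p = 0.45), and for Penk in L6IT neurons it was 2.11 (adjusted p = 0.67). The larger fall of both genes in GR-KO than in GR-Con was therefore not shown to differ between genotypes.

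Astrocyte GR loss itself was compared within each rearing and over both. The 1 pair above background that was called was Cort in Sst interneurons. It was counted at 2.04, 2.75, 5.93 and 2.72 CPM in NR and at 2.43, 3.51, 11.2 and 8.33 CPM in DR libraries, from 13, 16, 54 and 11 UMIs in NR and 20, 30, 52 and 47 UMIs in DR. Both DR GR-KO libraries were above the other 6, and in NR only the GR-KO male was above both GR-Con libraries. In DR its log2 fold change in GR-KO was 1.72 (SE 0.31, adjusted p = 1.1e-04), where 2 of 61 pairs and 0.513% of all features were called, and 0.357% of features in Sst interneurons were called higher. Over both rearings it was 1.39 (SE 0.28, adjusted p = 0.0022), the only call among 78 pairs, with 0.395% of all features called and 0.0884% called higher in Sst interneurons. The quasi-likelihood test did not call it (adjusted p = 0.0887 in DR and 0.49 over both), nor did DESeq2 over both (adjusted p = 0.129), while in DR DESeq2 gave no adjusted p, and the call was lost in either fit without the DR GR-KO male and in the second also without the DR GR-KO female.

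The share of thinned Sst nuclei with a UMI of Cort was 1.71% ± 0.983 in GR-Con and 3.16% ± 0.488 in GR-KO (SD, n = 4 each), and the libraries overlapped, from 0.847% to 3.10% in GR-Con and from 2.60% to 3.58% in GR-KO. Subtracting the oligodendrocyte level left the log2 difference in DR at 1.79. Without the DR GR-Con female, which leaves the 3 DR libraries with many microglia, the log2 fold change was 2.00. Over both rearings it was 1.44 with few or many microglia as a term (likelihood ratio test, adjusted p = 0.000939). The interaction for this pair was -0.78 (adjusted p = 1.0), so the genotype difference was not shown to depend on rearing.

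The remaining genotype calls lay at background. In DR Vip in Pvalb interneurons was lower in GR-KO (log2 fold change -1.67, adjusted p = 0.022), from 3.72 and 3.02 CPM to 0.778 and 1.27 CPM, at 1.48 times the oligodendrocyte level. In NR 3 of 85 pairs were called higher in GR-KO, against 0.804% of all features. All were Sst, in astrocytes (log2 fold change 0.87), L5PT neurons (1.41) and L6IT neurons (1.24). In astrocytes Sst was at 5.20 and 4.18 CPM in GR-Con and 10.7 and 7.51 CPM in GR-KO, while on the same scale the background level of Sst over its 14 types below the limit, astrocytes among them, was 1.87 and 1.58 CPM in those GR-Con libraries and 3.93 and 2.77 CPM in those GR-KO libraries. The part of the background in the calls was not tested. In NR 0 of the 16 pairs above background were called, but 1 of 16 was called with sex as a term. More were called without the NR GR-KO female, a fit that leaves 1 GR-KO library. The share of all features called in these 2 alternatives is not given, so nothing is read from them about the members.

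The wider peptide system was read through lists of receptors, of proteins that process or release peptides, and of other peptide precursors. With rearing, 23 of 157 receptor pairs were called (12 rose in DR and 11 fell), or 14.6% against 5.4% of all features, with a median log2 fold change of -0.01. The lists, like the members, were chosen with earlier results of these data known, so nothing is read from a share above that of all features. Adcyap1r1, a receptor for PACAP and VIP-family peptides, rose in DR in 6 types by 0.48 to 1.26. Tacr1, the substance P receptor, rose in 4 types, by 3.51 in L6IT, 2.05 in L2/3, 1.92 in Lamp5 and 1.41 in L4 cells. Npy5r, a neuropeptide Y receptor, fell in 4 types with log2 fold changes of -0.60 to -1.22, and Npy1r and Sstr1 fell in 2 types each. The quasi-likelihood test called 14 of the 157 (8.92%; 8 rose and 6 fell), against 3.48% of all features by that test. DESeq2 called 17 of the 118 to which it gave an adjusted p (14.4%; 6 rose and 11 fell), against 6.38% of all features. The lists were not split by the limit set for the members, and the background level of their genes was not measured.

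Of the processing and release pairs 35 of 225 were called (6 rose in DR and 29 fell), or 15.6% against 5.4% of all features, with a median log2 fold change of -0.06. The quasi-likelihood test called 16 of them (7.11% against 3.48% of all features; 5 rose and 11 fell), and DESeq2 31 of the 207 with an adjusted p (15.0% against 6.38%; 11 rose and 20 fell). Scg2, a granin of dense-core vesicles, fell in 10 types, with a log2 fold change of -1.72 in L2/3 neurons, and those types included astrocytes, oligodendrocytes and their precursors. Cadps2, which primes dense-core vesicles for release, fell in 6 types, and Vgf, a granin precursor induced by activity, fell in 4. Ptprn2, a vesicle membrane protein, rose in 4 types, and Cpe, the carboxypeptidase that trims most of these peptides, in 2. Among other precursors 3 of 37 pairs were called (8.11%), near the 5.4% of all features. The quasi-likelihood test called 1 (2.70% against 3.48%) and DESeq2 2 of the 26 with an adjusted p (7.69% against 6.38%). Adcyap1, which encodes PACAP, fell in L2/3 (-1.42) and L5IT neurons (-1.16), and Pnoc, the nociceptin precursor, rose in Lamp5 interneurons (0.48). No pair of the 3 lists was called by the interaction. Over both rearings, where 0.395% of all features were called, 2 of 157 receptor pairs (1.27%), Crhr1 and Vipr2 in astrocytes, and 2 of 225 processing pairs (0.889%), the convertase Pcsk1 in L6IT (0.62) and Sst cells (1.12), were higher in GR-KO.

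The features whose levels followed each gene most closely over the 20 cell types were ranked by Pearson correlation of log2(CPM + 1) among 13672 features, as a description. Sst was most like Pdyn (0.88) and Hpse (0.79), and Pdyn most like Hpse (0.93). Vip was most like Grpr (0.92), Chat (0.91) and Tac2 (0.91), and Tac2 most like 5330429C05Rik and the serotonin receptor subunit Htr3a (0.98 each). Penk (0.89) and Crh (0.90) were both most like Npy2r. Tac1 was most like Pvalb (0.94), Cort most like Gm31218 (0.94), Npy most like Abcc2 (0.81) and Cck most like Herc6 (0.82). The points are cell types from the same libraries, and they share the background described above.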

How the data were processed

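Nuclei were processed by the authors with a 10x 3′ kit, aligned to mm10 (GRCm38) with an added eGFP sequence using Cell Ranger (8.0.1 in the submitters' processing notes), filtered for doublets with DoubletFinder and labelled by Louvain clustering in Seurat (5.3.0). The deposited values are raw UMI counts per nucleus, and the deposited cell type labels were used as given, with no further doublet removal. The deposited percent of mitochondrial UMIs per nucleus, computed by the authors, was not used further. Library names give group and sex.

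Counts were summed per library and cell type (Python 3.11.15) and fitted in R 4.3.3 with edgeR 4.0.16 (filterByExpr, TMM, likelihood ratio test). The Benjamini-Hochberg method was applied over all features of a type, with an adjusted p of 0.05 as threshold, in types with at least 10 nuclei in every library of the fit. Standard errors are the log2 fold change over the square root of the likelihood ratio. There were 7 comparisons: genotype within each rearing, rearing within each genotype, their interaction, and each factor over all 8 libraries. The quasi-likelihood test and DESeq2 1.42.0 were alternatives. P-values rest on the spread between single-animal libraries and on models fitted across all features. Libraries of a group also differ in sex, and in some groups in the number of microglia. CPM carry no length scaling, since counts come from 3′ ends.

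The members and gene lists were chosen with earlier results of these data known. Per-library values are given for each member in its highest cell type and in called pairs above background, while called pairs at background are given by ranges, a departure from the rule that all called pairs be listed. Of each list, up to 3 genes per direction called in the most types for rearing are named, and for genotype those called. Gene positions are from GENCODE vM21. On simulated counts with 200 genes changed 2-fold, the likelihood ratio test recovered 84.5% of them for DR against NR over both genotypes, with 9.13% of calls false in Lamp5 and 12.7% in Vip interneurons. In Sst interneurons it recovered 67.3% for genotype in NR, with 19.1% of calls false, and 47.3% for the interaction, with 19.7% false.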

Additional observations from a re-analysis of the deposited data

How the results depend on the processing

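No paired analysis was possible because the libraries carry the animal's sex and not the replicate number of the labels, and animals of 1 sex are not a pair. Sex was fitted as a term instead. Under the quasi-likelihood test the called pairs were 0 (genotype in NR), 0 (genotype in DR), 1 (rearing in GR-Con), 9 (rearing in GR-KO), 0 (genotype over both rearings) and 17 (rearing over both genotypes). With DESeq2 they were 0, 0, 2, 14, 0 and 22 of the 123, 67, 52, 62, 139 and 50 pairs to which it gave an adjusted p. For rearing over both genotypes these tests called 3.48% and 6.38% of all features. For the other comparisons by these tests, and for the other alternatives in this section, no such share is given. Nothing is read from their counts about the members. With no filter on low counts 1 pair was called for genotype in NR. With sex as a term 10 were called for genotype in NR, 1 for the interaction and 2 for genotype over both rearings. In 1 fit of all 8 libraries, genotype gave 0 calls in NR and 1 in DR. Restricted to pairs above the oligodendrocyte level, the counts were 0 and 1 for genotype in NR and DR, and 1, 3 and 3 for rearing in GR-Con, in GR-KO and over both. Restricted to pairs above it in NR and in DR alike, they were 0 and 1 for genotype and 0, 2 and 2 for rearing. With few or many microglia as a term, genotype over both rearings gave 5. The last 3 alternatives, and the subtraction of the oligodendrocyte level, were chosen after seeing the data. The causes of these shifts were not tested.

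Leaving out each library in turn gave 0 to 21 calls for genotype in NR (21 without the NR GR-KO female), 0 to 5 in DR, 2 to 20 for rearing in GR-Con (20 without the DR GR-Con female), 14 to 48 in GR-KO, 0 to 3 for the interaction, 0 to 4 for genotype over both and 17 to 48 for rearing over both (17 without the DR GR-KO male). Without thinning, the shares of nuclei were 42.5% (Sst), 73.3% (Vip), 49.9% (Npy), 46.3% (Cck), 14.4% (Penk), 25.2% (Pdyn), 21.1% (Tac1), 24.8% (Tac2), 14.7% (Crh) and 14.3% (Cort).

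Of 345 alternatives for 23 results, each a pair in 1 comparison, 300 kept direction and side of the threshold. Another 20 lost the call, 6 gained one, 13 changed sign and 6 moved by more than the spread. Many of these results were not called and could not lose a call. Cort lost its call over both genotypes in Pvalb in 7 of 16 alternatives, and over both rearings in Sst in 4 of 16. In Lamp5 in GR-KO it did so in 5 of 11. The fall of Npy in Lamp5 interneurons over both genotypes (-0.91 to -0.73 without 1 library) stayed called throughout. That of Penk in L6IT neurons (-3.34 to -2.68) did too, but this pair passed the limit only through the NR libraries, where it is high. The sign changes were all in uncalled log2 values for rearing over both genotypes: Cck in L6IT (0.082 with the microglia term, -0.19 to 0.17 without 1 library), Npy in Sst (0.090 and -0.23 to 0.14), Cck in L2/3 (-0.28 to 0.041), Cort in L5PT (-0.63 to 0.094) and Crh in Sst interneurons (-0.13 to 0.53). Depth limits the small counts most: Penk in L6IT neurons rests on 2 UMIs in each DR GR-KO library.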

Other observations

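Types with too few nuclei for the tests also held neuropeptide UMIs. The 70 chandelier nuclei, summed over all libraries with no replicate check, held 8 UMIs of Cort, or 11.4 per 100 nuclei (exact 95% Poisson interval 4.93 to 22.5, counting error only), against 0.498 in oligodendrocytes. Tac1 was at 7.14 per 100 chandelier nuclei (2.32 to 16.7) against 0.904. Cck was at 25.7 (15.2 to 40.6) against 12.3, which is under the limit of 3 times oligodendrocytes and is read as background. Sst and Npy, with 2 UMIs each, were within counting error of oligodendrocytes. Penk, Pdyn and Crh had 0 UMIs, which allows up to 4.29 per 100 nuclei each by the limit of 3 counts and 5.27 by the exact interval. In microglia Sst was at 3.05, Vip at 3.42 and Npy at 2.95 UMIs per 100 nuclei, close to the oligodendrocyte level of each.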
